A study of Mus musculus with 6 samples.

Results

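The tricarboxylic acid (TCA) cycle and the pyruvate dehydrogenase complex that feeds it were followed through 29 genes, of the 54446 that the count tables list. The genes were taken by symbol from the table of the genotype comparison, and their counts were matched by Ensembl identifier. They comprise 11 genes for enzymes of the cycle, Dld, 5 genes for cytosolic or NADP-linked isoenzymes and malic enzymes, 4 for the core of the pyruvate dehydrogenase complex, 3 for its kinases, 3 for its phosphatases and 2 for the mitochondrial pyruvate carrier. Polyadenylated RNA of whole liver was sequenced as single reads of 75 bases from 3 WT mice and 3 mice with both copies of Fmo5 disrupted (Fmo5-/-), with 1 library per mouse. Fmo5 encodes flavin-containing monooxygenase 5, and the mice lack it in every tissue, not only in the liver. Both groups were males of 32 weeks of age on a C57BL/6 background (C57BL/6J in the study's methods), fed a standard chow diet. The mice were housed in adjacent cages, and whether WT and Fmo5-/- mice were littermates is not given in the sources used here.

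In the cycle, citrate synthase joins acetyl-CoA to oxaloacetate, and a ring of mitochondrial enzymes oxidises the product back to oxaloacetate while passing electrons to the respiratory chain. Pyruvate enters mitochondria through the pyruvate carrier and is turned into acetyl-CoA by pyruvate dehydrogenase, which its kinases switch off by phosphorylation and its phosphatases switch on again. In hepatocytes the cycle also gives out citrate for the synthesis of fatty acids and malate or oxaloacetate for gluconeogenesis.

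The libraries held between 44886286 and 52338675 counts on genes. Of the reads, 11.8% to 13.1% mapped to several places in WT and 10.4% to 11.5% in Fmo5-/- mice, 9.72% to 10.1% and 9.10% to 9.20% were unmapped, and 3.52% to 3.62% and 3.72% to 3.98% fell in several genes, so these shares separated the genotypes. Reads in no gene made up 6.86% to 7.02% in WT mice and 6.96%, 8.63% and 8.28% in Fmo5-/- mice. The part of these shares in the results was not tested. Fmo5 (chr3:97628804-97655282, mm10) gave normalized counts of 39807.7, 37405.3 and 30239.7 in WT mice and of 1071.29, 1102.37 and 1193.81 in Fmo5-/- mice, low where the labels give the knockout. To give normalized counts, each count was scaled to a library of average size. The defining markers of hepatocytes summed to between 101667 and 134300 CPM (counts per 1e6 counts) in WT mice and to between 104596 and 131195 in Fmo5-/- mice. Of these 5 markers, 4 were lower and 1 higher in Fmo5-/- mice, and none passed edgeR's test. Markers of fat and skeletal muscle were too low to be tested. Those of fat summed to 2.37 CPM in WT mouse 1 and to between 0.060 and 0.48 CPM in the other libraries, and their part in the results was not tested. All 6 markers of Kupffer cells, the resident macrophages of the liver, were higher in Fmo5-/- mice. They summed to 179.4, 177.6 and 150.8 CPM in WT mice and to 442.7, 423.3 and 239.4 in Fmo5-/- mice, and 1 of the 6, Clec4f, passed edgeR's test (log2 fold change 0.70, adjusted p = 0.0275). DESeq2 called 5 of the 6 higher, Clec4f, Cd5l, Vsig4, Timd4 and Marco, with adjusted p from 2.1e-07 to 0.0472. It also called 2 of 4 markers of T cells, Cd3e and Cd3d, and S100a9 among those of neutrophils higher. Markers of T cells summed to between 1.49 and 2.995 CPM in WT mice and between 2.84 and 10.9 in Fmo5-/- mice. Markers of neutrophils summed to between 0.775 and 2.32 CPM in WT and between 2.37 and 5.004 CPM in Fmo5-/- mice. These sums did not overlap but nearly met, at 2.32 CPM in WT mouse 1 and 2.37 CPM in Fmo5-/- mouse 3. Among the neutrophil markers, Ly6g and Retnlg were too low to be tested. All 4 markers of B cells had a higher mean in Fmo5-/- mice, and none passed edgeR's test. The summed markers of sinusoidal endothelium, stellate cells and cholangiocytes overlapped between the genotypes. Of the 5 markers of each, 3, 1 and 2 in that order were lower in Fmo5-/- mice and the rest higher, and none passed edgeR's test.

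Most of these genes were lower in Fmo5-/- than in WT liver by a small amount. Ordered by edgeR's adjusted p, Idh1, Dld, Sucla2 and Pdha1 stood at the head of the list, with log2 fold changes (log2FC, Fmo5-/- over WT) between -0.47 and -0.35. Of the 28 members that passed the filter on low counts, 22 had a lower and 6 a higher mean in Fmo5-/- mice, with a median log2FC of -0.20, beside 0.0058 over all 16734 genes tested. No member passed edgeR's quasi-likelihood test at an adjusted p under 0.05 (0 of 28, beside 1.37% of all genes tested), and their adjusted p-values ran from 0.0564 for Idh1 to 0.942 for Pdk2. At an unadjusted p under 0.05 the same test gave 13 members, 12 of them lower (10.2% of all genes tested) and 1 higher (11.6%), and DESeq2 called 5 members, all lower (4.20% of the genes it gave an adjusted p). In 13 members the 3 Fmo5-/- values all lay below the 3 WT values (13.5% of all genes tested) and in 1, Me2, all above (13.9%). Since whole liver was sequenced, fewer cells of a type and less RNA per cell cannot be told apart.

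The abundant members were set beside genes of like abundance. Over the 6 libraries, 25 members and 7819 genes in all averaged at least 500 normalized counts. Of the 25 members, 22 were lower in Fmo5-/- mice (88%), beside 64.0% of the 7819 genes, and their median log2FC was -0.22, beside -0.062. Groups without overlap were found in 13 of the 25, all lower, where 21.9% of the genes of like abundance were lower without overlap. An unadjusted p under 0.05 was reached by 12 of the 25, all lower, where the share was 17.6%. None of the 25 had a log2FC under -0.5 or over 0.2. Between log2FC values of -0.4 and -0.2 lay 12 of the 25 members.

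**Figure D1:**
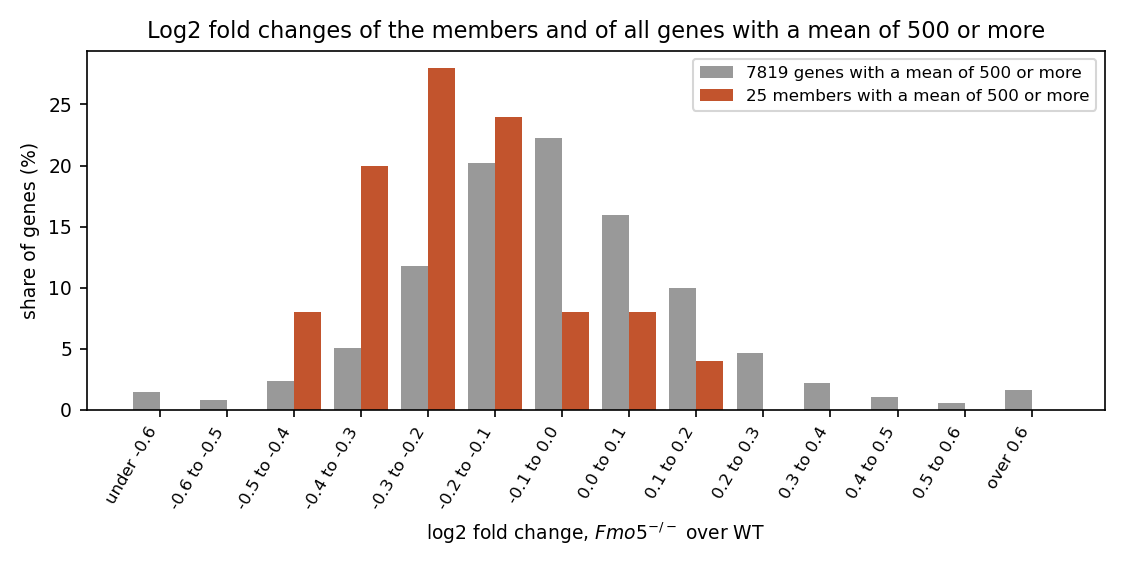
Share (%) of the 25 members (orange) and of all 7819 genes (grey) averaging at least 500 normalized counts in each interval of the log2FC, Fmo5-/- over WT. The interval from -0.3 to -0.2 holds 28% of the members and 11.8% of all genes, and no member lies under -0.5 or over 0.2.

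In the median, but not in every gene, the members lay below the WT mean in each Fmo5-/- library. Idh2 and Me2 lay above their WT means in all 3 Fmo5-/- mice. The median of the 28 members relative to the WT mean was -0.18, -0.24 and -0.16 on the log2 scale in the 3 Fmo5-/- mice and 0.055, 0.0021 and -0.071 in the 3 WT mice. For all genes with a mean of 500 or more, the same medians were -0.036, -0.096 and -0.052 in Fmo5-/- mice and 0.011, 0.016 and -0.023 in WT mice. Fmo5-/- mouse 2 held the lowest value in 15 of the 25 abundant members, and WT mouse 1 held the highest in 14. Without Fmo5-/- mouse 2 the median log2FC of the members was -0.14, and without WT mouse 1 it was -0.13. The coefficient of variation between mice of the 25 members had a median of 8.68% in WT and of 4.62% in Fmo5-/- mice, with the widest spread, 30.7%, in Pdk1 among Fmo5-/- mice.

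The promoters of the 4 members with the smallest adjusted p-values are shown because these members head the list and their windows can be compared. Each runs from 250 bases before to 50 bases after the annotated start (RefSeq, GRCm38.p6, the same coordinates as mm10). Capitals mark matches to the motif of NRF1 (nuclear respiratory factor 1), whose letters were GCGC and TGCGC around 1 free base, or to TGACNNNGC, the core of the antioxidant response element, on either strand.
Idh1 promoter (the upstream of 2 annotated starts), chr1:65186430-65186729, minus strand: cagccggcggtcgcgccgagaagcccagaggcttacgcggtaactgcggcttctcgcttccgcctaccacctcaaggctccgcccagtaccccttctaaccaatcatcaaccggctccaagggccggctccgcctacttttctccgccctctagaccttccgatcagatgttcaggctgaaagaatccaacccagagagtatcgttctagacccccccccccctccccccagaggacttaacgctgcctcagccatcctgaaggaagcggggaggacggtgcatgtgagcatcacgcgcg
Dld promoter, chr12:31351422-31351721, minus strand: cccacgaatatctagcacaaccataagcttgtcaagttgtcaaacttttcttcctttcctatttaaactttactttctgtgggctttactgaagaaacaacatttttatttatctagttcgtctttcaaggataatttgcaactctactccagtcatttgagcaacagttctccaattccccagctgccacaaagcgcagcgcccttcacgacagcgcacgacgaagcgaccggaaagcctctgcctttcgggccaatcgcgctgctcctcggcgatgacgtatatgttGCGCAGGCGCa
Sucla2 promoter, chr14:73552536-73552835, plus strand: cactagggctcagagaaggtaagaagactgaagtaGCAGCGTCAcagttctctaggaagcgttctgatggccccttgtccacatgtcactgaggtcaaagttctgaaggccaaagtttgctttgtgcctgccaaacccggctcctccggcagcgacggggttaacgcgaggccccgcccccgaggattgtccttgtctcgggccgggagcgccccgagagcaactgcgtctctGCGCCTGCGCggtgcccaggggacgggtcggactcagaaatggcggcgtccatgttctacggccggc
Pdha1 promoter, chrX:160138381-160138680, minus strand: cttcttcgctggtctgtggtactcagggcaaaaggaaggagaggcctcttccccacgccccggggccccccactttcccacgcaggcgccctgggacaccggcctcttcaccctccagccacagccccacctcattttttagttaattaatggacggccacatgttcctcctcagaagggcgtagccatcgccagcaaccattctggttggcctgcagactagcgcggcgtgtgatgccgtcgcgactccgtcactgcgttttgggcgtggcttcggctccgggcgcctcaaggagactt
In Sucla2 the NRF1 match begins 17 bases before the start and the match to TGACNNNGC, on the minus strand of the gene, 215 bases before it. In Dld the NRF1 match, on the opposite strand of the gene, begins 39 bases after the start. The Idh1 and Pdha1 windows hold neither, nor AAGGTCA, a site of the estrogen-related receptors, nor CCGGAAG, the core bound by ETS factors such as GABPA.

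Promoter windows were found by symbol for 26 of the 29 members, but not for Idh3a, Pdp1 or Me2. The NRF1 motif was present in 7.69% of these members, Sucla2 and Dld, and in 5.19% of all 27025 genes with a window. TGACNNNGC was present in 23.1%, namely Idh3g, Dlst, Sucla2, Mdh1, Pdhb and Mpc1, and in 14.0% of all genes. CCGGAAG was present in 15.4%, namely Idh3b, Idh3g, Dlst and Mpc1, and in 9.93% of all genes, and AAGGTCA in Ogdh alone and in 5.38% of all genes. The members' windows were richer in G and C, with a median of 62% beside 52.7% for all windows, and held a median of 23 CpG pairs beside 7. The part of base composition in these shares was not tested. A match is a description of the letters and not evidence of binding.

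Idh1, on chromosome 1 (chr1:65158616-65186500, minus strand), encodes the isocitrate dehydrogenase of cytosol and peroxisomes that makes NADPH outside mitochondria. Its normalized counts were 34952.1, 32614.9 and 31666 in WT mice and 25721.3, 21122.1 and 24687.2 in Fmo5-/- mice. Every WT mouse stood above every Fmo5-/- mouse. The log2FC was -0.47 (standard error, SE, 0.10, 95% interval -0.70 to -0.24), and the adjusted p was 0.0564 from edgeR's quasi-likelihood test with Benjamini-Hochberg adjustment and 0.000823 from DESeq2. Idh1, Dld and Pdha1 are also among the genes that the study chose on these same samples, so their direction is not independent evidence.

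Dld (chr12:31331277-31351453, minus strand) encodes dihydrolipoamide dehydrogenase, the subunit that the pyruvate, oxoglutarate and branched-chain dehydrogenase complexes share. Dld had normalized counts of 8094.14, 8322.21 and 7060.98 in WT mice and of 6183.68, 5636.66 and 6270.47 in Fmo5-/- mice. The groups did not overlap, and the closest pair was WT mouse 3 and Fmo5-/- mouse 3. Dld thus had a log2FC of -0.38 (SE 0.093, interval -0.59 to -0.17, adjusted p = 0.0740 from edgeR and 0.0101 from DESeq2).

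Sucla2 (chr14:73525319-73596142, plus strand) encodes the ADP-forming beta subunit of succinyl-CoA synthetase, the enzyme that turns succinyl-CoA into succinate. Its normalized counts were 7943.75, 7330.2 and 6578.39 in WT mice and 5873.47, 5458.59 and 5766.83 in Fmo5-/- mice. The Fmo5-/- mice lay close together and below all WT mice. The log2FC of Sucla2 was -0.35 (SE 0.092, interval -0.56 to -0.15, adjusted p = 0.0795 from edgeR and 0.0155 from DESeq2). The RefSeq start printed above lies inside the longer GENCODE gene.

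Pdha1 (chrX:160122209-160138413, minus strand) encodes the catalytic alpha subunit of pyruvate dehydrogenase and carries the serines that the kinases phosphorylate. It had normalized counts of 6000.44, 5568.23 and 4701.19 in WT mice and of 4526.44, 3570.53 and 4069.37 in Fmo5-/- mice. The groups did not overlap, but WT mouse 3 and Fmo5-/- mouse 1 were near each other. For Pdha1 the log2FC was -0.42 (SE 0.12, interval -0.69 to -0.15, adjusted p = 0.0926 from edgeR and 0.0232 from DESeq2). Map3k15 overlaps 16.1% of the exon length of Pdha1 on the opposite strand, and counts of both strands do not separate the pair.

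**Figure D2:**
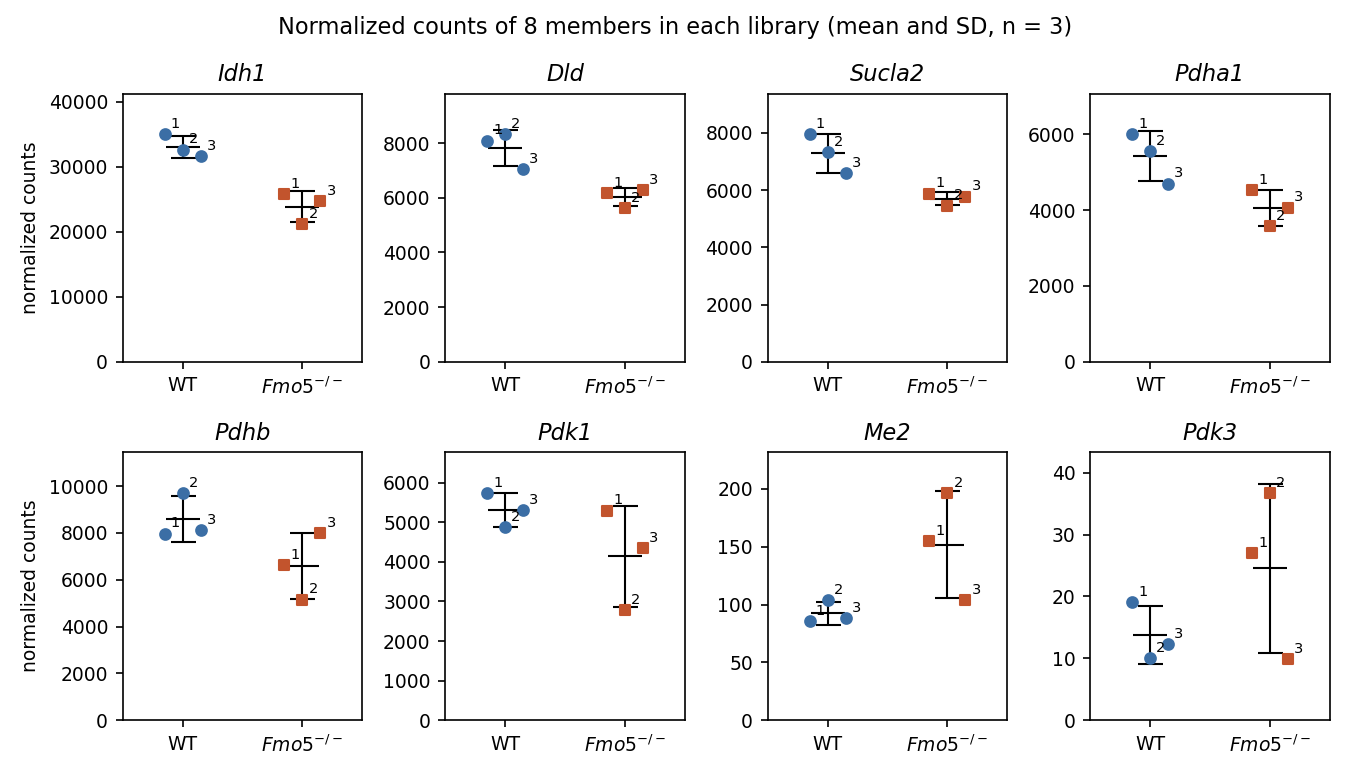
Normalized counts (vertical axes, from 0) of 8 members in each of 3 WT (circles) and 3 Fmo5-/- libraries (squares), numbered by mouse, with the mean and SD as bars. Idh1, Dld, Sucla2 and Pdha1 are lower in all Fmo5-/- mice, Pdhb and Pdk1 overlap, and Me2 and Pdk3 are highest in Fmo5-/- mouse 2, at 196.4 and 36.7.

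The other core subunits of pyruvate dehydrogenase were also lower, so that 4 of 4 were lower with a median log2FC of -0.33. Pdhb (chr14:8165996-8173025, minus strand), the beta subunit, had normalized counts of 7963.88, 9707.01 and 8115.12 in WT mice and of 6625.24, 5147.43 and 7976.76 in Fmo5-/- mice. Fmo5-/- mouse 3 was level with WT mouse 1, so the groups overlapped. Pdhb had a log2FC of -0.38 (SE 0.16, interval -0.74 to -0.028, adjusted p = 0.198). Of the 75-base words of Pdhb, 6.86% occur also in Gm6123 on chromosome 1. Pdhx, which anchors Dld in the complex, had a log2FC of -0.28 (SE 0.11, adjusted p = 0.172), and Dlat, the acetyltransferase, one of -0.19 (SE 0.11, adjusted p = 0.330). Both overlapped between the genotypes. Without Fmo5-/- mouse 2, the lowest in both genes, the log2FC was -0.24 for Pdhb and -0.09 for Dlat.

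The kinases that inactivate the complex had differences in both directions, none of which passed the test. Pdk1 (chr2:71873224-71903858, plus strand) had normalized counts of 5742.04, 4879.73 and 5299.32 in WT mice and of 5295.91, 2776.57 and 4346.23 in Fmo5-/- mice. Its low mean in Fmo5-/- mice came with a wide spread, since mouse 2 was far below and mouse 1 within the WT range. For Pdk1 the log2FC was -0.36 (SE 0.22, interval -0.87 to 0.15, adjusted p = 0.387), and it was -0.14 without Fmo5-/- mouse 2 and -0.58 without Fmo5-/- mouse 1. Pdk2 averaged 3827 ± 353 in WT and 3875 ± 462 in Fmo5-/- mice (SD, n = 3 each), and its log2FC of 0.02 had an interval of -0.23 to 0.26 and ran from -0.06 without Fmo5-/- mouse 1 to 0.11 without Fmo5-/- mouse 2.

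Pdk3 (chrX:93764607-93832201, minus strand) was scarcely present, with normalized counts of 19.06, 10.04 and 12.27 in WT mice and of 27.02, 36.71 and 9.82 in Fmo5-/- mice. Fmo5-/- mouse 3 was below all WT mice and the other 2 Fmo5-/- mice were above them. The log2FC of Pdk3, 0.83, had an SE of 0.48 and an interval of -0.25 to 1.91, and without Fmo5-/- mouse 2 it was 0.42. Per exon length, Pdk3 made up between 0.189% and 0.898% of the sum of the 4 kinase genes in any library. On the same scale Pdk2 made up 49.6%, 64.3% and 49.6% in WT mice and 56.9%, 66.7% and 64.7% in Fmo5-/- mice. Pdk4, the fourth kinase and a gene induced by fasting, held 19.3%, 5.16% and 19.7% in WT mice and 14.03%, 10.005% and 6.32% in Fmo5-/- mice, and so differed within each genotype by more than between them. The order of Pdk1 and Pdk2 depends on the length used, since the mean ratio of Pdk2 to Pdk1 in WT mice was 1.79 by exon length and 0.775 by coding length.

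Of the phosphatase genes, Pdp2, a catalytic subunit, had lower counts in all Fmo5-/- mice, with means of 2405 ± 273 in WT and 2068 ± 80.8 in Fmo5-/- mice (log2FC -0.22, SE 0.095, adjusted p = 0.222), and without WT mouse 2 the log2FC was -0.13. Pdpr, the regulatory subunit, overlapped between the genotypes (log2FC -0.21, interval -0.63 to 0.21), and its log2FC ran from -0.38 without Fmo5-/- mouse 1 to -0.06 without Fmo5-/- mouse 2. Pdp1, the other catalytic subunit, was low in liver, averaging 62.6 ± 6.08 in WT and 67.3 ± 15.5 in Fmo5-/- mice, with a log2FC of 0.10 (interval -0.42 to 0.62) that ran from -0.06 without Fmo5-/- mouse 1 to 0.26 without Fmo5-/- mouse 3. The intervals of Pdpr and Pdp1 leave room for changes larger than that of Pdp2.

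Both genes of the mitochondrial pyruvate carrier were lower. Mpc1 had means of 3279 ± 524 in WT and 2717 ± 106 in Fmo5-/- mice without overlap (log2FC -0.27, SE 0.11, adjusted p = 0.200). Reads of Mpc1 may be split with other genes, as 23.0% of its exon length is overlapped by 4930506C21Rik on the opposite strand and 9.72% of its 75-base words occur also in Mpc1-ps. Without WT mouse 1, the highest of the 6, the log2FC of Mpc1 was -0.13. Mpc2 had means of 9313 ± 961 and 7930 ± 288 (log2FC -0.23, SE 0.097, adjusted p = 0.203), and its groups overlapped.

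For the 5 members that act between succinyl-CoA and oxaloacetate, which leave out succinate dehydrogenase, the Fmo5-/- values lay below the WT values without overlap, as in 21.9% of genes of like abundance, and the median log2FC was -0.26. Beside Sucla2 these are Suclg1, the alpha subunit of succinyl-CoA synthetase, Suclg2, its GDP-forming beta subunit, Fh1, fumarate hydratase, and Mdh2, the mitochondrial malate dehydrogenase. Suclg1 had means of 9983 ± 702 in WT and 8318 ± 70.5 in Fmo5-/- mice (log2FC -0.26, SE 0.084, adjusted p = 0.121 from edgeR and 0.0492 from DESeq2). Suclg2 had means of 7481 ± 921 and 6025 ± 235 (log2FC -0.31, SE 0.10, adjusted p = 0.129), and 11.6% of its 75-base words occur also in Gm15163 on chromosome X. For Fh1 the log2FC was -0.11 (interval -0.29 to 0.07) and for Mdh2 -0.15 (interval -0.32 to 0.03).

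Dlst, the succinyltransferase of oxoglutarate dehydrogenase, had means of 10032 ± 686 in WT and 8371 ± 373 in Fmo5-/- mice without overlap (log2FC -0.26, SE 0.088, adjusted p = 0.134), and Ogdh, the dehydrogenase subunit, had means of 6993 ± 607 and 6634 ± 1057 with overlap (log2FC -0.08, interval -0.35 to 0.20). When 1 library was left out, the log2FC of Ogdh ran from -0.21, without Fmo5-/- mouse 1, to 0.02, without Fmo5-/- mouse 2. The intervals of Dlst and Ogdh overlap, and the difference between them was not tested.

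In the first part of the cycle the differences were small. Cs, citrate synthase, had a log2FC of -0.07 (interval -0.28 to 0.14), which was -0.13 without WT mouse 2 and 0.00064 without WT mouse 3. Of the subunits of the NAD-linked isocitrate dehydrogenase, Idh3a, the catalytic one, had a log2FC of 0.03 (interval -0.15 to 0.21), Idh3b one of -0.14 (interval -0.32 to 0.03) and Idh3g one of -0.12 (interval -0.30 to 0.05). None of these 4 genes had an unadjusted p under 0.05, and Idh3b alone of them had no overlap. Without WT mouse 1 the log2FC of Idh3a was -0.02. The median log2FC of the 4 was -0.10.

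**Figure D3:**
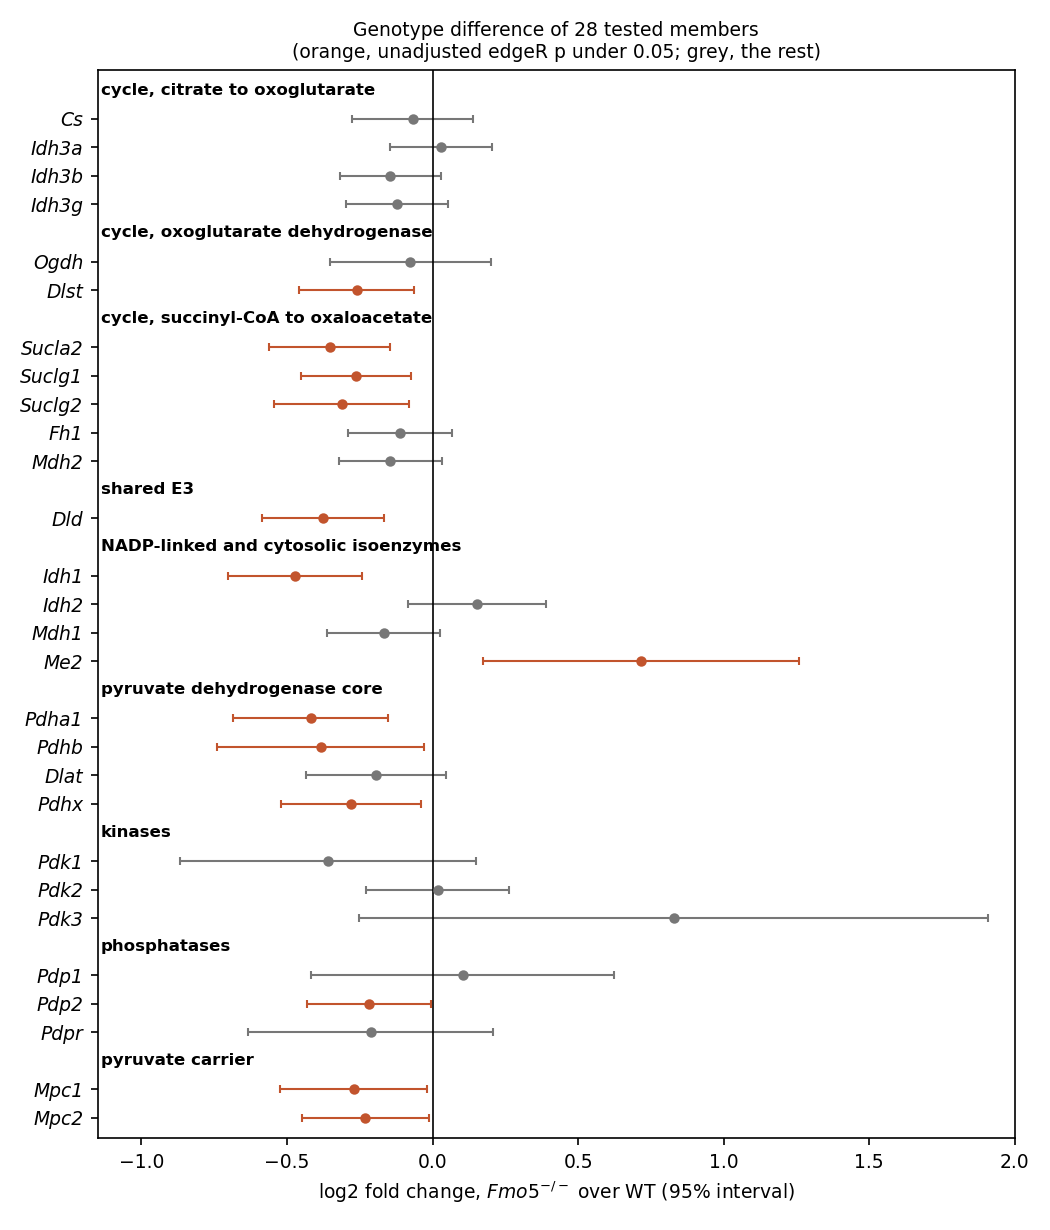
Log2FC, Fmo5-/- over WT (horizontal axis, points), with its 95% interval (bars) for the 28 tested members in groups by role, in orange where the unadjusted p of edgeR is under 0.05. The intervals of 12 members lie wholly below 0, from Idh1 at -0.47 to Pdp2 at -0.22, and that of Me2 lies above 0.

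The isoenzymes outside the cycle went in both directions. Mdh1, the cytosolic malate dehydrogenase of the malate-aspartate shuttle, had means of 34642 ± 1511 in WT and 30825 ± 1245 in Fmo5-/- mice without overlap (log2FC -0.17, interval -0.36 to 0.03). Idh2, the NADP-linked isocitrate dehydrogenase of mitochondria, had means of 4409 ± 455 and 4900 ± 473 with overlap (log2FC 0.15, interval -0.08 to 0.39), and its log2FC was 0.08 without Fmo5-/- mouse 2 and 0.25 without WT mouse 1. Idh1 and Idh2 catalyse the same reaction in different compartments, and per kb of exon the ratio of Idh1 to Idh2 was 6.62, 7.41 and 7.07 in WT mice and 4.94, 3.66 and 5.19 in Fmo5-/- mice. The ratios of the genotypes did not overlap.

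In all, 13 such ratios between subunits, isoenzymes or a kinase and a phosphatase were computed, and the other 12 overlapped between the genotypes. The share of such ratios without overlap among other gene pairs was not computed, so the count is a description. The following are by exon length. Suclg2 over Sucla2, the GDP-forming over the ADP-forming subunit, was 0.884 ± 0.0265 in WT and 0.912 ± 0.0293 in Fmo5-/- mice, and by coding length the means were 1.10 and 1.13. Pdha1 over Pdhb was 0.657 ± 0.106 and 0.650 ± 0.107, and Mdh1 over Mdh2 was 5.14 ± 0.39 and 5.05 ± 0.13. Pdk2 over Pdk1 was 1.79 ± 0.29 in WT and 2.41 ± 0.52 in Fmo5-/- mice, or 0.775 and 1.04 in the mean by coding length. Pdk2 over Pdp2 was 2.87 ± 0.0618 and 3.38 ± 0.468, and Pdp2 over Pdp1, which rests on the low counts of Pdp1, was 30.8 ± 6.12 and 25.1 ± 5.27 (SD, n = 3 each).

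Me2, an NAD-linked malic enzyme of mitochondria, was the member with a higher value in every Fmo5-/- mouse, at low counts. Its normalized counts were 85.8, 103.8 and 87.9 in WT mice and 154.6, 196.4 and 104.1 in Fmo5-/- mice. Fmo5-/- mouse 3 was level with the highest WT mouse, WT mouse 2, and the other 2 were well above. For Me2 the log2FC was 0.72 (SE 0.24, interval 0.17 to 1.26, adjusted p = 0.134 from edgeR), and without Fmo5-/- mouse 3 the adjusted p was 0.0381. Without Fmo5-/- mouse 2, the highest, the log2FC of Me2 was 0.49 with an adjusted p of 0.361, and without any other single mouse the adjusted p was between 0.196 and 0.315. The Kupffer cell markers were also higher in Fmo5-/- mice and lowest among them in mouse 3, at 239.4 CPM, and their part in the values of Me2 and Pdk3 was not tested. The position of Me2 was not used here. Me3, the NADP-linked mitochondrial malic enzyme, had between 2 and 11 counts per library and was not tested.

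Levels were compared between genes per length, as RPKM, the counts divided by exon length in kb and scaled to CPM. Me2, with a mean of 92.5 normalized counts in WT mice, had no exon length here and was left out of the order. Mdh1, at 276.6 ± 12.1, and Idh1, at 244.6 ± 12.5, were the most abundant members in WT mice, and in Fmo5-/- mice they were at 246.1 ± 9.94 and 176.3 ± 17.8. Both encode enzymes outside mitochondria. Fh1 followed at 56.6, Mdh2 at 53.9 and Idh3b at 52.6, and from Pdhb, at 45.6, down to Pdk2, at 24.8, each gene overlapped with the next in the order. Among the members with an exon length, the lowest levels were those of Pdpr, at 3.11, Pdp1, at 0.285, Pdk3, at 0.110, and Me3, at 0.0083. The first 2 and the last 4 places were the same with coding length in place of exon length, but the order between them was not, and Mpc2 moved from place 16 to place 3.

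**Figure D4:**
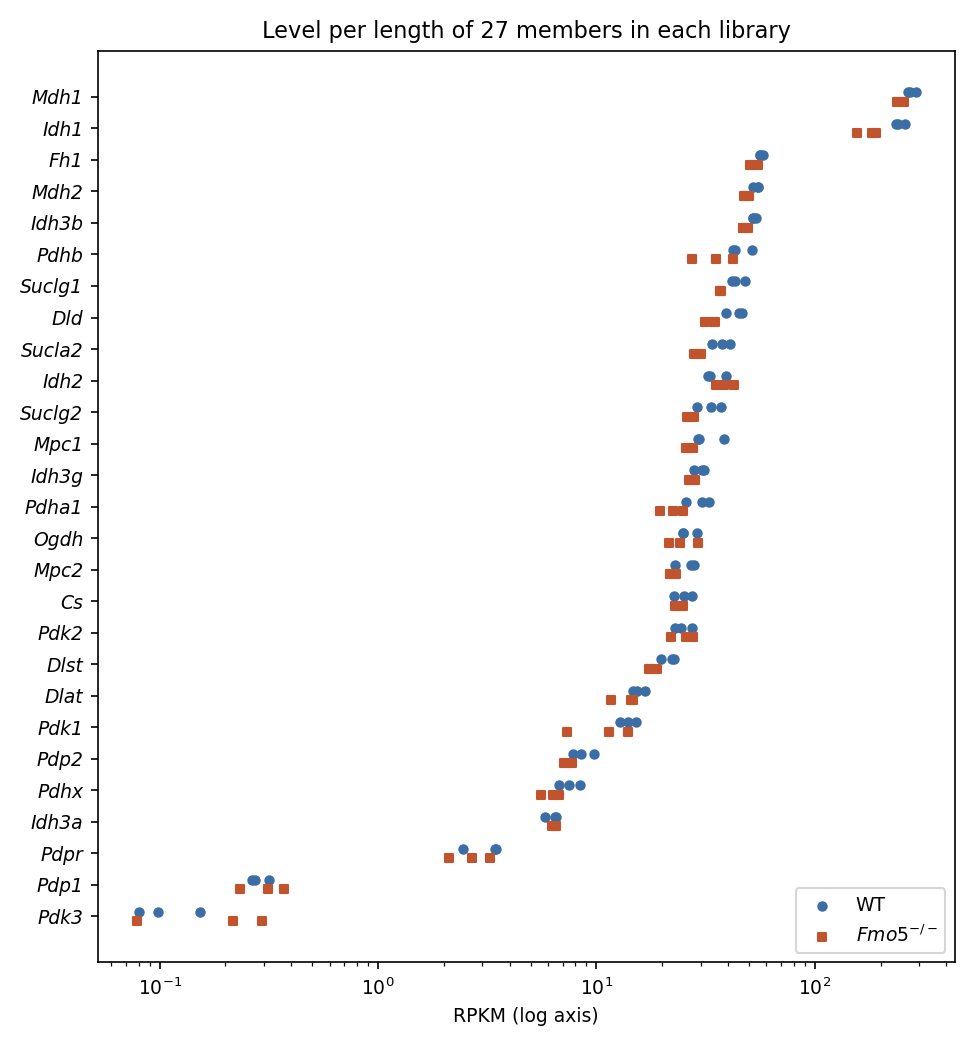
Level per length (horizontal log axis, RPKM) of 27 members in each WT (circles) and Fmo5-/- library (squares), in the order of the WT mean, with Me2 and Me3 left out. Mdh1 and Idh1 lead at 276.6 and 244.6 in WT mice, and the Idh1 squares are set off from its circles.

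The remaining genes of the pathway were taken as a list of 44 genes. They are those for succinate dehydrogenase and its assembly factors, Aco1, Pdk4, lipoate attachment, the routes in and out, sister dehydrogenases, carriers and regulators. Of the 43 that were tested, 32 were lower and 11 higher in Fmo5-/- mice, with a median log2FC of -0.14. At an unadjusted p under 0.05, 14 were lower and 2 higher, beside 10.2% and 11.6% of all genes tested. Of the 43 genes, 35 averaged at least 500 normalized counts, and of all genes of that abundance 64.0% were lower and 17.6% lower at an unadjusted p under 0.05. None passed edgeR's quasi-likelihood test at an adjusted p under 0.05, and DESeq2 called 5, Aco1, Me1, Bckdha and Slc25a13 lower (beside 4.20% of its genes) and Got1 higher (beside 4.73%). Aco1, Me1, Bckdha and Slc25a13 are among the genes that the study chose on these same samples. In 11 genes the Fmo5-/- mice all lay below the WT mice and in 2, Got1 and Esrra, all above, beside 13.5% and 13.9% of all genes tested and 21.9% and 9.39% among genes of the higher abundance.

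Of the subunits of succinate dehydrogenase, which passes electrons to ubiquinone, Sdha had a log2FC of -0.26 (interval -0.50 to -0.014), Sdhd one of -0.24 (interval -0.43 to -0.050), Sdhc one of -0.16 and Sdhb one of -0.14. The genotypes overlapped in Sdha, Sdhb and Sdhc and did not in Sdhd. Aco1, a cytosolic enzyme outside the mitochondrial cycle that also regulates iron as an RNA-binding protein, was at -0.32 (SE 0.095, adjusted p = 0.1004 from edgeR).

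Of the routes in and out of the cycle, Me1, the cytosolic malic enzyme that makes NADPH, had normalized counts of 12407.5, 8337.83 and 11622.1 in WT mice and of 5855.77, 2580.14 and 4698.68 in Fmo5-/- mice. Its log2FC of -1.30 (SE 0.32, adjusted p = 0.0961 from edgeR and 0.00631 from DESeq2) was larger in size than that of any tested member. Pcx, which makes oxaloacetate from pyruvate, was at -0.34 (interval -0.66 to -0.017), Glud1, glutamate dehydrogenase, at -0.28 and Got2, the mitochondrial aspartate aminotransferase, at -0.23. Got1, the cytosolic aminotransferase, was at 0.43 (SE 0.14, adjusted p = 0.120 from edgeR and 0.0490 from DESeq2). Acod1, which makes itaconate from cis-aconitate and is known from macrophages, had normalized counts of 13.8, 4.46 and 9.20 in WT mice and of 122.0, 78.0 and 8.84 in Fmo5-/- mice. Acod1 passed edgeR's test only without Fmo5-/- mouse 3, the Fmo5-/- mouse with the lowest sum of Kupffer cell markers, and the part of those cells in the result was not tested.

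**Figure D5:**
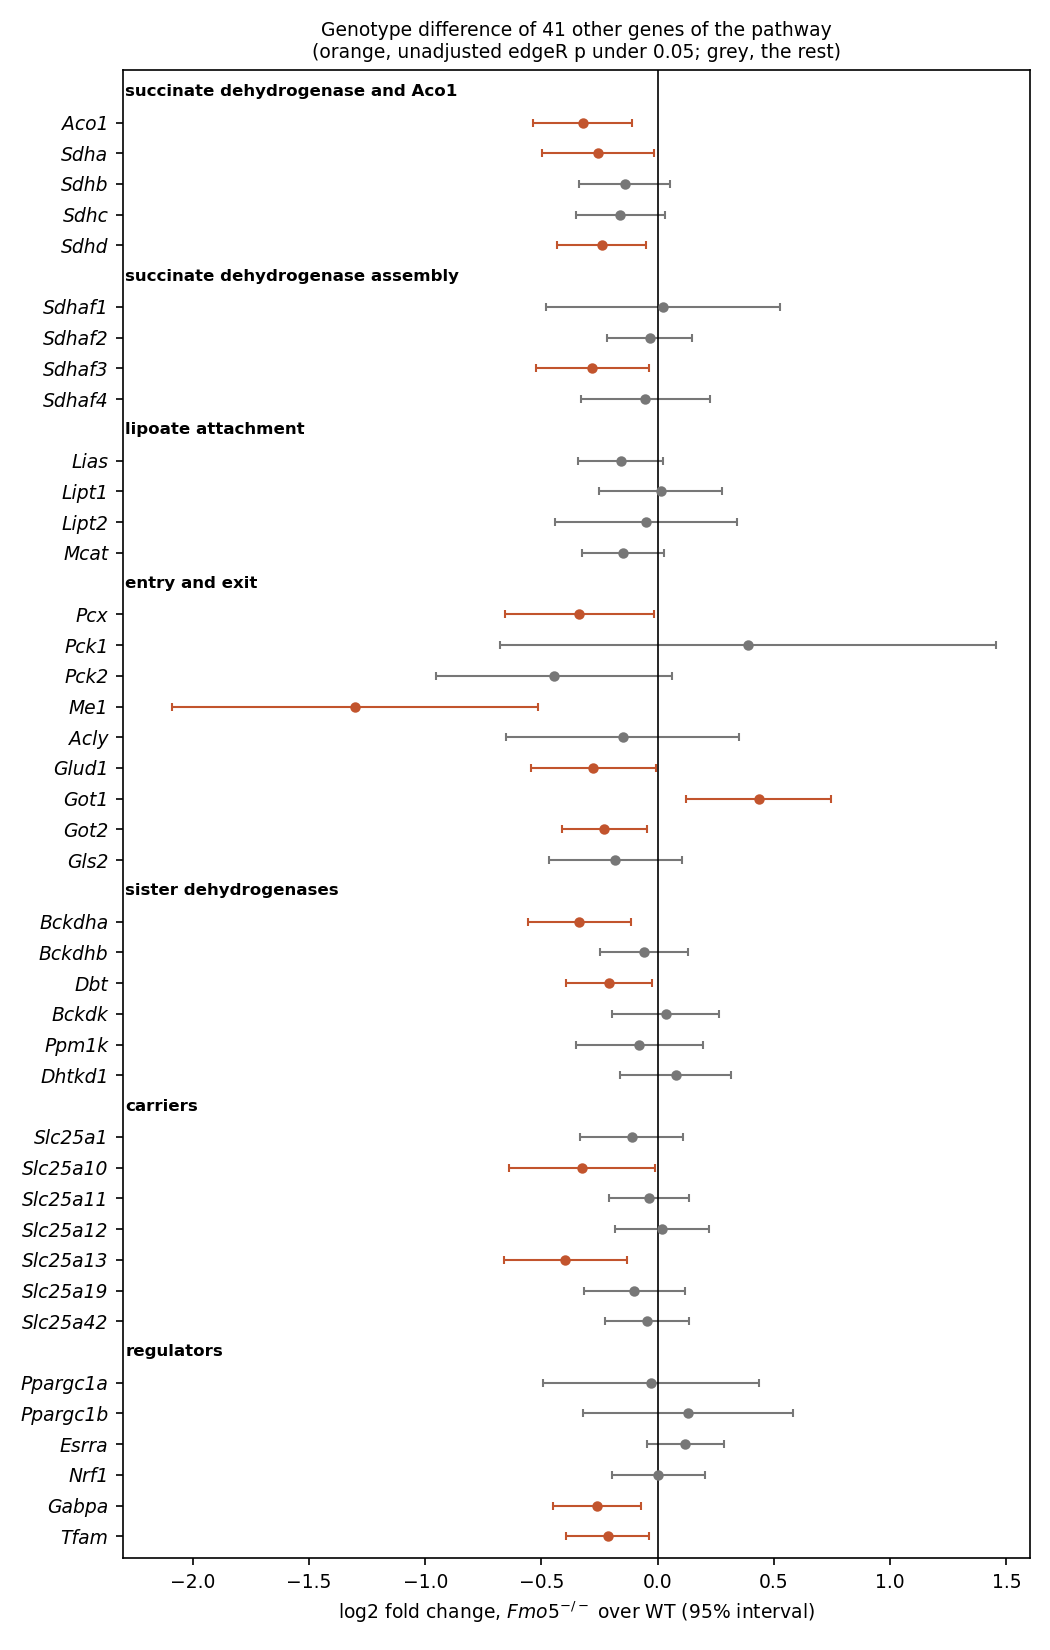
Log2FC, Fmo5-/- over WT (horizontal axis, points), with its 95% interval (bars) for 41 other genes of the pathway in groups by role, in orange where the unadjusted p of edgeR is under 0.05, with Acod1 and Pdk4 left out for their wide intervals. Me1 lies farthest to the left at -1.30, and Got1 is to the right at 0.43 with an interval above 0.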

How the data were processed

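Counts per gene were deposited for 6 liver libraries, 3 of WT and 3 of Fmo5-/- mice. The authors clipped adapters, mapped the reads to mm10 with STAR and had STAR count them per gene. They also deposited a table of normalized signal, which was checked to be the counts of both strands divided by 1 factor per library, with the columns of their DESeq2 comparison (fold changes, standard errors, Wald statistics and p-values), which were not used. The gene annotation release is not given in the sources used here. Reads that name no gene (unmapped, at several places, in no gene or in several) made up 30.8% to 33.8% of a library and were left out.

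Genes were joined by Ensembl identifier. Counts of both strands were filtered with filterByExpr (minimum count 10), scaled by TMM and tested with the robust quasi-likelihood fit of edgeR 4.0.16 in R 4.3.3, two-sided, with Benjamini-Hochberg adjustment over 16734 genes and a threshold of 0.05. Standard errors (SE) are the log2 fold change over the square root of F. The biological coefficient of variation was 15.0%. With 3 mice against 3, an exact permutation test cannot give less than 0.1, so non-overlap was only counted. DESeq2 1.42.0, other scalings and filters, reads of 1 strand and leaving out each library were the alternatives. All 29 members and Fmo5 were named, and the listed pathway genes and the cell type markers only in part. Values in every library were given for members with an adjusted p under 0.1 or among the 8 largest log2FC values. The members and lists were chosen with earlier results of these data known. Positions and exon lengths are those of GENCODE vM21. One listed pathway gene is not reported here and was left out of the counts. Steps were tested on simulated data. The changes simulated were larger than those of any abundant member, so how often differences of that size are found was not measured.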

Additional observations from a re-analysis of the deposited data

How the results depend on the processing

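The direction of the members held under most alternatives, but which of them pass the threshold depends on the tool and filter. The 28 tested members include 22 with a lower mean in Fmo5-/- mice, and between 21 and 24 when 1 library is left out. DESeq2 called 5 members (Idh1, Dld, Sucla2, Pdha1 and Suclg1) and edgeR without a filter on low counts called 7 (Idh1, Dld, Sucla2, Pdha1, Pdhb, Suclg2 and Me2), where the main test called 0. The same 2 alternatives called 1396 (8.93%) and 1989 (5.82%) of all genes given an adjusted p, where the main test called 229 (1.37%). After a limit of 500 on the mean edgeR called 53 (0.678%), and leaving out 1 library gave 31 (0.182%) to 763 (4.45%). The other scalings, the limit of 500 and reads of 1 strand called 0 members. Leaving out 1 library gave 0 to 1 members, the 1 being Me2 without Fmo5-/- mouse 3. Of the other genes of the pathway, DESeq2 called 5, edgeR without a filter 6, and leaving out 1 library gave 0 to 1, the 1 being Acod1. The median log2FC of the members ran from -0.22 to -0.13 when 1 library was left out, with -0.13 without WT mouse 1 and -0.14 without Fmo5-/- mouse 2. It was -0.15 when genes with a mean under 500 were left out before fitting, a scaling that moved the median of all genes of that abundance from -0.062 to 0.0017, and 10 of 25 members then had no overlap, beside 29.2% of all genes under that scaling. Of the 28 tested members 14 had no overlap, counting both directions, beside 27.4% of all genes and 31.3% of those with a mean of 500 or more. Reads of 1 strand gave 12 of 27, beside 25.9% of all genes and 29.3% of those with a mean of 500 or more. The other settings with all libraries gave 14 to 15. Leaving out 1 library gave 14 to 20, beside 34.0% to 41.9% of all genes and 35.7% to 46.6% of those with a mean of 500 or more. These counts of 2 mice against 3 are not comparable with those of 3 against 3. No member's fold change reversed past a threshold. No paired analysis was possible because the labels give no replicate numbers that the groups share, and mice were numbered in accession order within each genotype. With 3 mice a group, the intervals of differences as small as those of Cs or Pdk2 include 0. The p-values set each difference against the spread between these mice only, which edgeR moderates with that of other genes.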

Other observations

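The sister dehydrogenase complexes share Dld with the members. Of 6 tested genes for these complexes or their regulation, 4 were lower in Fmo5-/- mice, beside 64.0% of all genes with a mean of 500 or more. Bckdha, the alpha subunit of branched-chain ketoacid dehydrogenase, had a log2FC of -0.34 (SE 0.098, adjusted p = 0.0988 from edgeR and 0.0448 from DESeq2), Dbt, its acyltransferase, one of -0.21 (interval -0.39 to -0.025) and Bckdhb, its beta subunit, one of -0.06 (interval -0.25 to 0.13). Bckdk, the kinase of that complex, was at 0.03 (interval -0.20 to 0.26). Of the genes that attach lipoate to these complexes, Lias, lipoic acid synthase, was at -0.16 (interval -0.34 to 0.025) and Lipt1 at 0.01.

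Of 7 mitochondrial carriers, 6 had a lower mean in Fmo5-/- mice, beside 64.0% of all genes with a mean of 500 or more. The median log2FC of the 7 was -0.10, beside -0.062 for those genes. Slc25a13, the liver aspartate-glutamate carrier, was at a log2FC of -0.40 (SE 0.12, adjusted p = 0.1004 from edgeR and 0.0248 from DESeq2), and Slc25a12, the other gene for such a carrier, at 0.02 (interval -0.18 to 0.22). Among regulators of mitochondrial genes, Gabpa was at -0.26 (interval -0.45 to -0.073) and Tfam at -0.22 (interval -0.39 to -0.037), both lower without overlap between the genotypes, as were 21.9% of all genes with a mean of 500 or more. Esrra was at 0.12 (interval -0.05 to 0.28) and higher without overlap, as were 9.39% of genes of that abundance, Ppargc1a at -0.03 (interval -0.49 to 0.43) and Nrf1, the gene of nuclear respiratory factor 1, at 0.0030 (interval -0.20 to 0.20).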
